A study of Mus musculus with 18 samples.

Results

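The genes described here are the solute carriers that move metabolites across the mitochondrial inner membrane and amino acids across the plasma membrane, measured in cells sorted from mouse dorsal skin. They were chosen by symbol: protein-coding genes of the families Slc25a, Slc1a, Slc3a, Slc6a, Slc7a (without Slc7a11), Slc36a and Slc38a. This gave 74 genes of the 13816 gene IDs tested, of which 40 belonged to Slc25a and 34 to the other families, called the plasma membrane families below. The pattern itself uses no expression value, but the families were picked with earlier results of these data known. The symbol pattern also took in Slc7a6os, which lies 2.01 kb from Slc7a6 on the other strand and encodes no amino acid transporter. GENCODE release M21 annotates 107 protein-coding genes that match the pattern, and the other 33 were not analysed here.

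The study sorted 3 populations, labelled EpSCs, Germ and Bulge, from control skin at day 0 and from skin treated with the contact sensitizer DPCP (diphenylcyclopropenone) at day 2. Each of the 6 groups held 3 samples, 18 in all. Cells were sorted by flow cytometry on surface markers that the labels do not name. The labels call the cells dermal keratinocytes in every sample, give no strain, sex, age or number of animals, and do not spell out EpSCs. Treatment and day of collection changed together, and their effects cannot be told apart. The bulge of a hair follicle houses its stem cells, and the hair germ is the cell cluster at its lower end.

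The values are the authors' comparisons of DPCP with control within each population, made with limma: a log2 fold change (DPCP minus control), a p-value and a p-value adjusted over all 13816 gene IDs. A gene was called, and is said to have risen or fallen, when the adjusted p was under 0.05. Values per sample were not used here, because the library columns carry names that match no sample label. Levels, standard deviations and depth can therefore not be given, and a fold change of a gene with low expression cannot be bounded. In bulk RNA, a change in which cells were sorted and a change of RNA within cells cannot be told apart. Without levels, the sorted cell types could not be checked by their markers either.

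Carriers of the Slc25a family are built from 3 repeats of a pair of membrane-spanning helices and let nucleotides, phosphate, amino acids, citric acid cycle intermediates and cofactors pass the inner mitochondrial membrane, which is otherwise closed to them. A few work elsewhere, Slc25a17 in peroxisomes and Slc25a46 on the outer membrane. At the cell surface, the glycoprotein Slc3a2 pairs with Slc7a light chains to exchange large neutral or basic amino acids, Slc1a and Slc38a proteins take up glutamate, glutamine and small neutral amino acids with sodium, and Slc6a proteins couple amino acids, taurine, creatine and neurotransmitters to sodium and chloride. Slc36a1, Slc38a7 and Slc38a9 act mainly at the lysosome, where Slc38a9 reports arginine to the growth kinase mTORC1. In epidermis, amino acids taken up in this way feed protein synthesis, and taurine serves as an osmolyte.

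In EpSCs, 29 of the 74 genes changed, 11 higher and 18 lower, beside 39.9% of all gene IDs (19.9% were higher, 20.0% lower). The share of members called was 39.2%, close to that of all genes. The families differed in their counts: 18 of 34 plasma membrane genes were called (52.9%, 5 higher and 13 lower) and 11 of 40 Slc25a genes (27.5%, 6 higher and 5 lower). In Germ, 1 member rose and 0 fell in the authors' limma table, beside 1.06% of all gene IDs (0.847% were higher, 0.21% lower). That table held 15 members with an unadjusted p under 0.05 in Germ, of 3545 genes in all. In Bulge, 4 members rose and 5 fell, 12.2% of the 74 beside 10.3% of all gene IDs (5.12% higher and 5.16% lower). Of these 9, 8 belonged to the plasma membrane families and 1 to Slc25a. With Benjamini-Yekutieli adjustment in place of the authors', 16 members were called in EpSCs and 0 in Germ or Bulge. Shares of all gene IDs called with that adjustment are not given, so whether the members lost more calls than other genes is unknown here. Over the 3 populations, 40 members were called in none, 29 in 1 and 5 in more than 1. The same counts over all gene IDs are not given here, so these describe the members only and are not read as particular to them.

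Values of Slc25a genes lay closer to 0 than those of the plasma membrane families. The median absolute log2 fold change of Slc25a genes was 0.44 in EpSCs, 0.43 in Germ and 0.45 in Bulge, against 0.58, 0.53 and 0.49 over all gene IDs. For the plasma membrane families it was 1.06, 0.55 and 0.80, in the same order. A change of more than 2-fold in either direction was seen for 4 of 40 Slc25a genes in EpSCs (10%) and for 18 of 34 plasma membrane genes (52.9%), beside 29.8% of all gene IDs. In Bulge these were 1 of 40 and 15 of 34, beside 23.6% of all. In Germ they were 4 of 40 and 10 of 34, beside 25.9%. The signed medians of the plasma membrane families were −0.59 in EpSCs, 0.36 in Germ and 0.00079 in Bulge, where all gene IDs had −0.0034, 0.10 and −0.02. These are descriptions of the lists, and no test of a list was made.

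**Figure D1:**
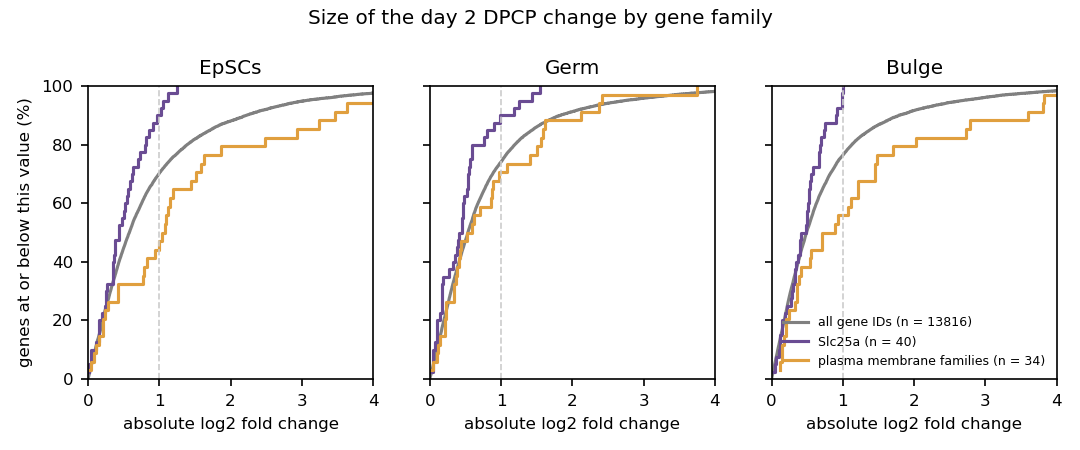
Cumulative share of genes (%) by absolute log2 fold change, DPCP minus control, in EpSCs, Germ and Bulge, for all 13816 gene IDs (grey), the 40 Slc25a genes (purple) and the 34 plasma membrane genes (orange), with a dashed line at a 2-fold change and the axis shown up to 4. The Slc25a line reaches 100% early, while 18 of 34 plasma membrane genes in EpSCs and 15 of 34 in Bulge lie beyond the dashed line.

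The malate-aspartate shuttle brings reducing equivalents of NADH into mitochondria. Of its 3 measured carriers, 2 rose in EpSCs, beside 19.9% of all gene IDs. These 3 were no planned list. They were drawn from the amino acid list and the oxoglutarate list, where they are counted again below. Slc25a13 (citrin), an aspartate-glutamate carrier, rose 1.89-fold there in the authors' deposited table (0.92, adjusted p = 0.000835). Its paralogue Slc25a12 stood at 0.26 in the same table (adjusted p = 0.225) and was not called. Slc25a11, the oxoglutarate carrier of the shuttle, rose by 0.36 (adjusted p = 0.0458), a fold of 1.29 in the authors' deposited table. In Bulge, Slc25a12 and Slc25a13 stood at 0.66 and 0.67 in the authors' deposited table, with adjusted p = 0.0658 and 0.0643, so both missed the threshold. Germ values of Slc25a12, Slc25a13 and Slc25a11 in the authors' deposited table were 0.04, −0.41 and −0.46, none called (adjusted p = 0.923, 0.314 and 0.215).

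A pair of carriers of other amino acids fell in EpSCs. Slc25a29, which carries basic amino acids, fell by 1.03 in the authors' deposited table (adjusted p = 0.00434). Slc25a38, a glycine carrier needed for haem synthesis, fell by 0.97 in that table (adjusted p = 0.00103). The authors' deposited table put Slc25a29 at −0.89 in Germ and −0.69 in Bulge and Slc25a38 at −0.40 and −0.58, below 0 in every population but called in EpSCs alone. Slc25a48, a choline carrier grouped here with the amino acid carriers, fell by 0.85 in EpSCs (adjusted p = 0.0315) and stood at −1.55 in Germ (adjusted p = 0.0927) and 0.99 in Bulge (adjusted p = 0.388) per the authors' deposited table. The remaining carriers of that group were not called in any population: Slc25a22 for glutamate (1.25 in Germ, adjusted p = 0.193, in the authors' deposited table), Slc25a44 for branched-chain amino acids and Slc25a15 for ornithine. Of the 8 measured carriers of this group, 4 were called in EpSCs (50%), 1 higher and 3 lower, beside 39.9% of all gene IDs.

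Nucleotide and coenzyme carriers moved both ways in EpSCs, with 3 higher and 2 lower of 14 measured. These were 35.7% of the 14, beside 39.9% of all gene IDs called. Slc25a5, the ADP/ATP carrier of most dividing cells (ANT2), rose by 0.55 in the authors' deposited table (adjusted p = 0.0155). Slc25a4, the ADP/ATP carrier of heart and muscle (ANT1), was at −0.15 in EpSCs, 0.59 in Germ and −0.39 in Bulge in the same table and was not called (adjusted p = 0.506, 0.15 and 0.265). Slc25a51, which imports NAD, rose by 0.71 (adjusted p = 0.00428) and Slc25a16 by 0.51 (adjusted p = 0.0385) in EpSCs per the authors' deposited table. Slc25a24, a calcium-regulated ATP-Mg/phosphate carrier, fell 2.39-fold in EpSCs (−1.25, adjusted p = 0.000216), the lowest adjusted p of any Slc25a gene in the authors' deposited table. Its paralogues Slc25a23 and Slc25a25 stood at −0.82 and −0.73 there and were not called (adjusted p = 0.144 and 0.0864). Slc25a36, a pyrimidine nucleotide carrier, fell by 0.59 in EpSCs in the authors' deposited table (adjusted p = 0.0218). In Germ and Bulge 0 of these 14 were called in the authors' limma table, beside 1.06% and 10.3% of all gene IDs. In each population 2 of the 14 had unadjusted p-values under 0.05 in that table, beside 3545 and 4037 of all 13816 gene IDs.

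Carriers of phosphate, citrate, dicarboxylates and acylcarnitine were not called in any population. Their list also held the oxoglutarate carrier Slc25a11, given above. With it, 1 of 5 measured genes was called in EpSCs (20%, beside 39.9% of all gene IDs). The phosphate carrier Slc25a3 had log2 fold changes of −0.02 in EpSCs, 0.05 in Germ and 0.15 in Bulge in the authors' deposited table, and the citrate carrier Slc25a1 had −0.15, 0.10 and 0.20. The carnitine-acylcarnitine carrier Slc25a20 stood at −0.26, −0.55 and −0.51 in the same table and the dicarboxylate carrier Slc25a10 at 0.35, 0.60 and 0.91, with Slc25a10 just outside the threshold in Bulge (adjusted p = 0.0511). The 4 iron and glutathione carriers Slc25a28, Slc25a37, Slc25a39 and Slc25a40 were not called either, with values from −0.44 to 0.56 in EpSCs, −0.28 to 1.44 in Germ and −0.22 to 0.92 in Bulge.

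The 9 remaining Slc25a genes are related to uncoupling proteins or have other or unassigned roles. Of them, 1 rose in EpSCs (11.1%, beside 39.9% of all gene IDs called) and 1 fell in Bulge (11.1%, beside 10.3%). Slc25a46, which takes part in mitochondrial fission and membrane contacts, rose 2.18-fold in EpSCs (1.13, adjusted p = 0.000565) per the authors' deposited table. It was at 0.81 in Germ and 0.50 in Bulge there, above 0 in every population without being called (adjusted p = 0.145 and 0.127). Slc25a53, a carrier without an assigned substrate, fell by 0.99 in Bulge in the authors' deposited table (adjusted p = 0.0484), the 1 Slc25a gene called there. It stood at −0.35 in EpSCs and 0.98 in Germ in that table, uncalled (adjusted p = 0.396 and 0.385). The other 7 ranged from −1.06 (Slc25a47) to 0.79 (Slc25a35) in EpSCs per the authors' deposited table.

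**Figure D2:**
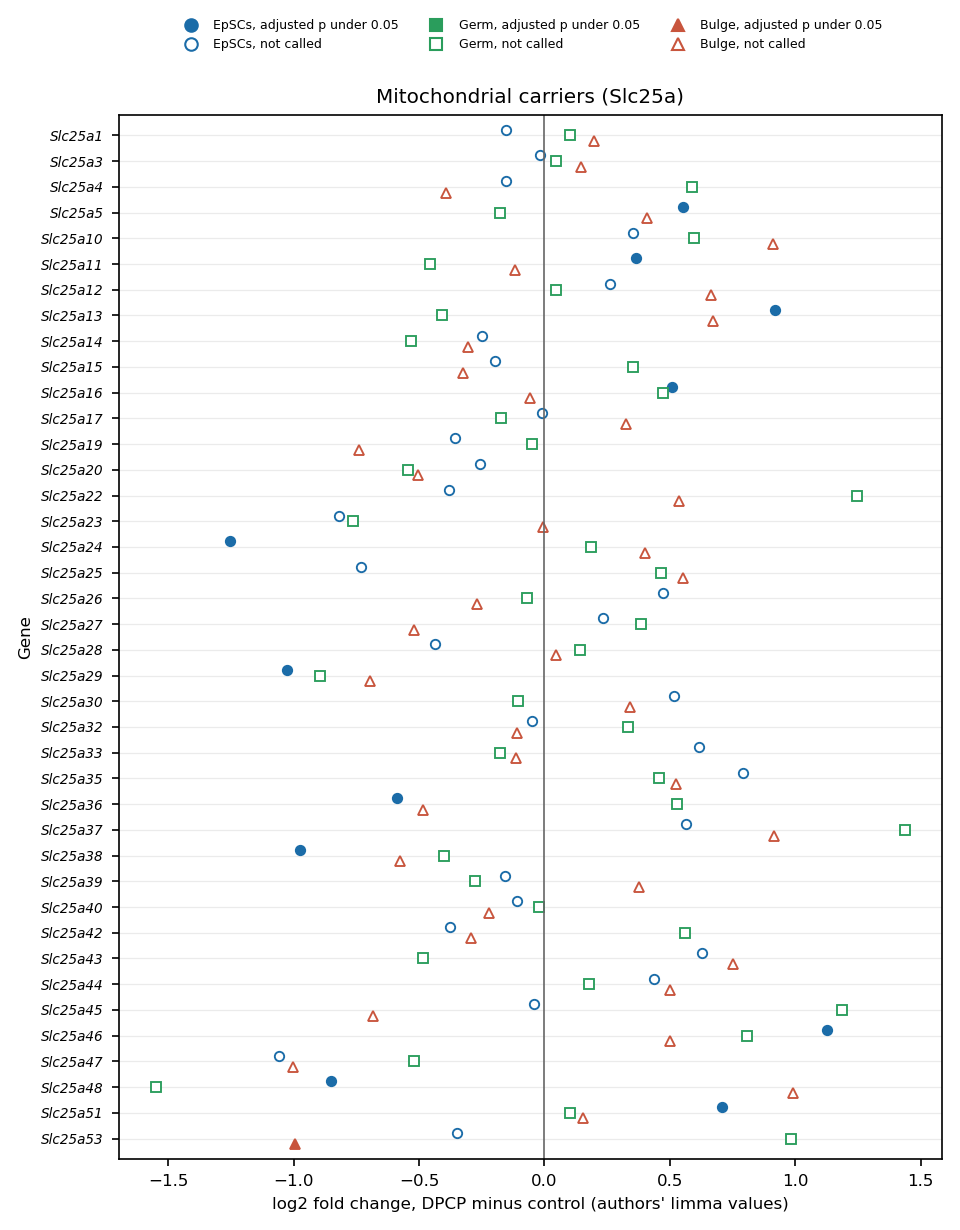
Log2 fold change, DPCP minus control, of the 40 Slc25a genes in EpSCs (circles), Germ (squares) and Bulge (triangles), as given by the authors, with filled symbols for an adjusted p under 0.05. Filled circles mark the 11 genes called in EpSCs, from Slc25a24 (−1.25) to Slc25a46 (1.13), and the 1 filled triangle is Slc25a53.

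Proteins that bring carriers into the inner membrane were also read, as a list of 13 that is no part of the families. In EpSCs 3 rose and 5 fell (61.5%, beside 39.9% of all gene IDs called). Timm29 stood at 0.74 and Tomm70a at 0.59, against Timm10 at −0.98 and Timm8b at −0.97, in the authors' deposited table. Tomm70a is the outer membrane receptor for carrier precursors, Timm29 a subunit of the inner membrane insertion complex, and Timm10 and Timm8b are small chaperones of the space between the membranes. The list median was −0.23 in EpSCs, −0.52 in Germ and 0.06 in Bulge. In Bulge 1 of the 13 was called (7.69%, beside 10.3% of all gene IDs). It was the import channel gene Tomm40 (1.09, adjusted p = 0.037 in the authors' deposited table). In Germ 0 were called in the authors' limma table, beside 1.06% of all gene IDs. There 3 had an unadjusted p under 0.05 in that table, beside 3545 of all 13816 gene IDs.

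Of the 34 plasma membrane genes, 4 rose and 1 fell in both EpSCs and Bulge, and no Slc25a gene was called in both. Over all members, 5 of 74 were thus called in the same direction in both, beside 4.78% of all gene IDs. Slc6a14, a concentrative transporter of neutral and basic amino acids found in epithelia, rose 11.1-fold in EpSCs (3.47, adjusted p = 5.98e-05) and 6.91-fold in Bulge (2.79, adjusted p = 0.0277) per the authors' deposited table. Slc6a20a, a proline transporter, rose by 1.59 in EpSCs (adjusted p = 0.00973) and 22.2-fold in Bulge (4.48, adjusted p = 0.0138) in the same table. The creatine transporter gene Slc6a8 rose by 0.79 in EpSCs (adjusted p = 0.0133) and 1.21 in Bulge (adjusted p = 0.0162) per the authors' deposited table. Slc36a4, a transporter of proline and tryptophan, rose by 1.15 in EpSCs (adjusted p = 0.00095) and 0.93 in Bulge (adjusted p = 0.0322) in that table. Slc1a3, the glutamate transporter GLAST, fell by 1.13 in EpSCs (adjusted p = 0.0327) and 6.6-fold in Bulge (−2.72, adjusted p = 0.0281) per the authors' deposited table. In Germ the authors' deposited table had these 5 between −0.22 (Slc6a8) and 0.44 (Slc36a4), with none called.

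The sequences before the starts of these genes are shown because they are the members called in more than 1 population. RefSeq promoters (GRCm38.p6) were at hand for 55 of the 74 members (74.3%), among them 4 of the 5, while Slc6a8 had no entry in the table used. Each line gives the 250 bases before the start annotated in RefSeq, 5′ to 3′ on the strand of the gene. That start can differ from the one in GENCODE M21, by which the windows of Slc6a14 and Slc6a20a reach into the gene. They lie at chrX:21714650-21714899 on the plus strand (Slc6a14), chr9:123678833-123679082 on the minus strand (Slc6a20a), chr9:15709488-15709737 on the plus strand (Slc36a4) and chr15:8710808-8711057 on the minus strand (Slc1a3). Capitals mark matches, on either strand, to the AP-1 motif TGANTCA, the core of the amino acid response element TGATGNAA or the E-box CACGTG.
Slc6a14: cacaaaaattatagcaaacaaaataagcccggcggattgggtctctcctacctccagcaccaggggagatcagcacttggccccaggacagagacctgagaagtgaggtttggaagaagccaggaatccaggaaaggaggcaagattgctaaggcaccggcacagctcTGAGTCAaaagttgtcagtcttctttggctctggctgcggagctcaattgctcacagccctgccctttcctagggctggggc
Slc6a20a: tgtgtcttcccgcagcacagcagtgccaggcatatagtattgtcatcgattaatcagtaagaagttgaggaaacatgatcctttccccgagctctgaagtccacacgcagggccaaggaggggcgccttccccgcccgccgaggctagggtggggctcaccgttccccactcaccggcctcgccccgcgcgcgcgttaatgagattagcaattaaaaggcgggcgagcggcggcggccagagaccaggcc
Slc36a4: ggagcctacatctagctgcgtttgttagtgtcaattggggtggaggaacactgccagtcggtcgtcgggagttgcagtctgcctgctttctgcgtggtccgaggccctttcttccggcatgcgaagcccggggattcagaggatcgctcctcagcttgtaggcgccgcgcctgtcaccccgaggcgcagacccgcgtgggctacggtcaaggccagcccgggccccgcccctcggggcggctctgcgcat
Slc1a3: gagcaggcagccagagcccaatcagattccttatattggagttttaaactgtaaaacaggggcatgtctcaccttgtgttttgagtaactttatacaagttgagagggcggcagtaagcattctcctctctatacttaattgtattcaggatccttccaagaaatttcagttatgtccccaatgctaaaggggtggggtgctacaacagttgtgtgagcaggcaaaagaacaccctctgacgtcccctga
A single match was found, an AP-1 motif in Slc6a14, at bases 82 to 76 before the start. The window of Slc6a14 held 4 CG pairs at 54.0% G+C, that of Slc1a3 2 at 44.8%, that of Slc6a20a 21 at 61.2% and that of Slc36a4 23 at 66.0%. Over the 27025 genes with a promoter in the table, the AP-1 motif was in 7.82%, the amino acid response core in 3.91% and the E-box in 6.86% of genes. No share over the members is given, since too few of them had a promoter in the table. No match in these windows says only that the letters are not there.

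The member called in Germ was a light chain of the system L exchangers. Slc7a5 (LAT1), the light chain that exchanges leucine and other large neutral amino acids, rose 3.06-fold in Germ (1.61, adjusted p = 0.0402) per the authors' deposited table. It stood at 1.22 in Bulge (adjusted p = 0.102) and −0.42 in EpSCs (adjusted p = 0.122) there. Its heavy chain partner Slc3a2 had 0.70 in Germ (adjusted p = 0.127), −0.15 in Bulge and −0.29 in EpSCs in the authors' deposited table and was not called. The light chain gene Slc7a8 (LAT2) fell 4.09-fold in Bulge (−2.03, adjusted p = 0.0414) in the same table, beside 1.51 in Germ (adjusted p = 0.208) and −0.76 in EpSCs (adjusted p = 0.608). For the light chains that exchange basic for neutral amino acids, Slc7a6 fell by 0.83 in EpSCs (adjusted p = 0.00379) and Slc7a7 was at 2.41 in Germ without being called (adjusted p = 0.0887) per the authors' deposited table. Slc7a6os stood at −0.04, 0.01 and −0.12 in EpSCs, Germ and Bulge in the authors' deposited table.

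Of the cationic amino acid transporter group, 3 of 3 measured genes were called lower in EpSCs, beside 20.0% of all gene IDs. Slc7a1 (CAT1), the widespread arginine and lysine transporter, fell by 1.04 (adjusted p = 0.0167), Slc7a2 (CAT2) by 1.63 (adjusted p = 0.00515) and the related Slc7a4 by 1.08 (adjusted p = 0.00601) per the authors' deposited table. In Bulge, Slc7a1 was at 1.12 (adjusted p = 0.159) and Slc7a2 at −1.48 (adjusted p = 0.251) in that table. In Germ, Slc7a2 was at 1.55 (adjusted p = 0.121) and Slc7a1 at 0.11 (adjusted p = 0.774) per the authors' deposited table. Slc7a4 was at −0.52 in Germ and −0.38 in Bulge there, uncalled (adjusted p = 0.334 and 0.397). All 8 Slc7a genes, Slc7a6os included, were below 0 in EpSCs, where 6926 of all 13816 gene IDs were. In Germ 6 of the 8 were above 0, beside 7605 of all gene IDs.

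Of the Slc1a genes, 2 of 4 fell in EpSCs, beside 20.0% of all gene IDs. Slc1a4 (ASCT1), an exchanger of alanine, serine and cysteine, fell 5.57-fold there (−2.48, adjusted p = 0.000752) per the authors' deposited table, and Slc1a3 is given above. Slc1a5 (ASCT2), the glutamine exchanger, stood at 0.24 in EpSCs, 1.08 in Germ and 0.55 in Bulge in the authors' deposited table and was not called (adjusted p = 0.61, 0.153 and 0.388). The neuronal-type glutamate transporter gene Slc1a1 had −1.09, 1.59 and −1.45 in the same order in that table, none called.

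Of the Slc6a family, 8 of 11 were called in EpSCs (3 higher, 5 lower), beside 39.9% of all gene IDs. In Bulge 4 of 11 were called (3 higher, 1 lower), beside 10.3%. The lowest and the highest value of any member belonged to this family in both populations. Besides the 3 that rose, the proline transporter gene Slc6a7 fell 56.6-fold in EpSCs (−5.82, adjusted p = 0.00123) per the authors' deposited table. Slc6a17, a vesicular neutral amino acid transporter of neurons, fell 12.4-fold there (−3.64, adjusted p = 0.00143) and the noradrenaline transporter gene Slc6a2 9.41-fold (−3.23, adjusted p = 1.73e-05) in the same table. The serotonin transporter gene Slc6a4 fell by 1.87 (adjusted p = 0.00446) and the taurine transporter gene Slc6a6 by 1.51 (adjusted p = 0.000761) in EpSCs per the authors' deposited table. Slc6a4 was below 0 in every population, at −1.41 in Germ (adjusted p = 0.209) and −3.82 in Bulge (adjusted p = 0.0881) per the authors' deposited table. Slc6a19, a neutral amino acid transporter of gut and kidney, fell 12.1-fold in Bulge (−3.60, adjusted p = 0.0366) in that table. Slc6a6 was at 0.86 in Germ and −0.21 in Bulge, uncalled (adjusted p = 0.294 and 0.799), in the authors' deposited table. Slc6a9 (glycine) and Slc6a15 (branched-chain amino acids and proline) were called in no population.

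Among sodium-coupled neutral transporters, 1 rose and 2 fell of 8 in EpSCs (37.5%, beside 39.9% of all gene IDs called). In Bulge 1 of the 8 fell (12.5%, beside 10.3% called). Slc38a1, of system A, fell 16.7-fold in EpSCs (−4.06, adjusted p = 0.0124) per the authors' deposited table, where it stood at 3.75 in Germ (adjusted p = 0.0896) and 0.89 in Bulge (adjusted p = 0.512). Slc38a5, a glutamine transporter of system N, fell 7.62-fold in EpSCs (−2.93, adjusted p = 0.0275) in the same table. Slc38a4 fell 14-fold in Bulge (−3.81, adjusted p = 0.0185) and was at −0.93 in EpSCs and 0.88 in Germ in the authors' deposited table. Slc38a2 (SNAT2), the system A gene known to be induced when amino acids run short, was at −0.42 in EpSCs, 0.88 in Germ and 0.35 in Bulge in that table and not called (adjusted p = 0.0791, 0.274 and 0.634). The lysosomal arginine sensor gene Slc38a9 rose by 1.0 in EpSCs (adjusted p = 0.00421) per the authors' deposited table. The proton-coupled lysosomal transporter gene Slc36a1 was at −0.21, 0.34 and 0.36 in EpSCs, Germ and Bulge there, uncalled in each. Slc38a6, Slc38a7 and Slc38a10 lay between −0.43 and 0.41 in every population.

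**Figure D3:**
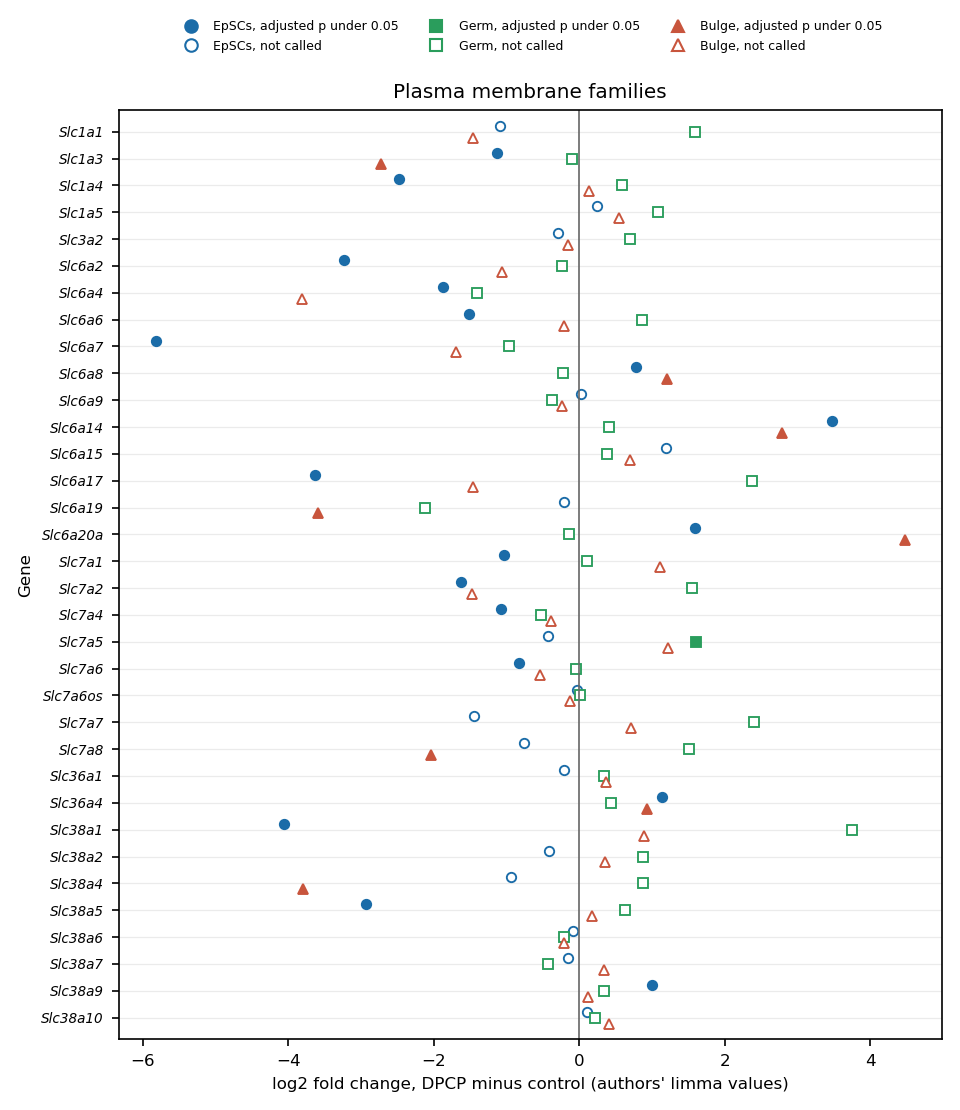
Log2 fold change, DPCP minus control, of the 34 plasma membrane genes in EpSCs (circles), Germ (squares) and Bulge (triangles), as given by the authors, with filled symbols for an adjusted p under 0.05. Values run from −5.82 (Slc6a7 in EpSCs) to 4.48 (Slc6a20a in Bulge), 5 genes have both a filled circle and a filled triangle, and the 1 filled square is Slc7a5.

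Of the 34 plasma membrane genes, 15 had the same sign in EpSCs and Germ (44.1%), beside 63.1% of all gene IDs, while EpSCs and Bulge shared the sign in 24 (70.6%, beside 63.0% of all). For Slc25a the shares were 20 of 40 with Germ and 26 of 40 with Bulge. These shares are descriptions, and by their labels the 3 comparisons have no sample in common.

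Whether an effect differed between populations was tested gene by gene on the difference of the authors' fold changes, with a standard error rebuilt from their p-values and p adjusted over all gene IDs. The test is approximate, and on simulated data it called too many genes in the comparisons with EpSCs. For EpSCs minus Germ, 14 of 74 members differed, 3 of them Slc25a, beside 12.2% of all gene IDs. For EpSCs minus Bulge 5 members differed, beside 10.4%, and for Germ minus Bulge 4, beside 5.99%. Of the 14, 11 had the lower effect in EpSCs, as did 894 of the 1690 gene IDs that differed in all. The difference for Slc7a5 was −2.04 (95% interval −3.02 to −1.06, adjusted p = 0.00166) and that for its partner Slc3a2 was −0.99 (−1.69 to −0.29, adjusted p = 0.0472). Slc38a1 differed by −7.82 (−11.56 to −4.07, adjusted p = 0.00156), Slc6a17 by −6.02, Slc7a7 by −3.86, Slc38a5 by −3.56 and Slc7a2 by −3.19. Slc1a4 differed by −3.06, Slc6a2 by −3.0 and Slc6a6 by −2.38. The effect was higher in EpSCs than in Germ for Slc6a14 (3.06), Slc25a13 (1.33, adjusted p = 0.00546) and Slc25a11 (0.82, adjusted p = 0.0418), while Slc25a24 had −1.44.

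In EpSCs against Bulge, the 5 differences were all negative: Slc38a1 (−4.95), Slc1a4 (−2.62), Slc7a1 (−2.16, 95% interval −3.46 to −0.85, adjusted p = 0.021), Slc25a24 (−1.66) and Slc7a5 (−1.64). Over all gene IDs 754 such differences were positive and 679 negative. In Germ against Bulge, Slc38a4 (4.68) and Slc7a8 (3.54) had the higher effect in Germ, and Slc6a20a (−4.62) and Slc6a8 (−1.43) the lower. With the standard error rebuilt from a t distribution with 12 degrees of freedom, 1 of these 4 was called, beside 5 of 5 for EpSCs minus Bulge and 11 of 14 for EpSCs minus Germ. Shares of all gene IDs called with that distribution are not given here.

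**Figure D4:**
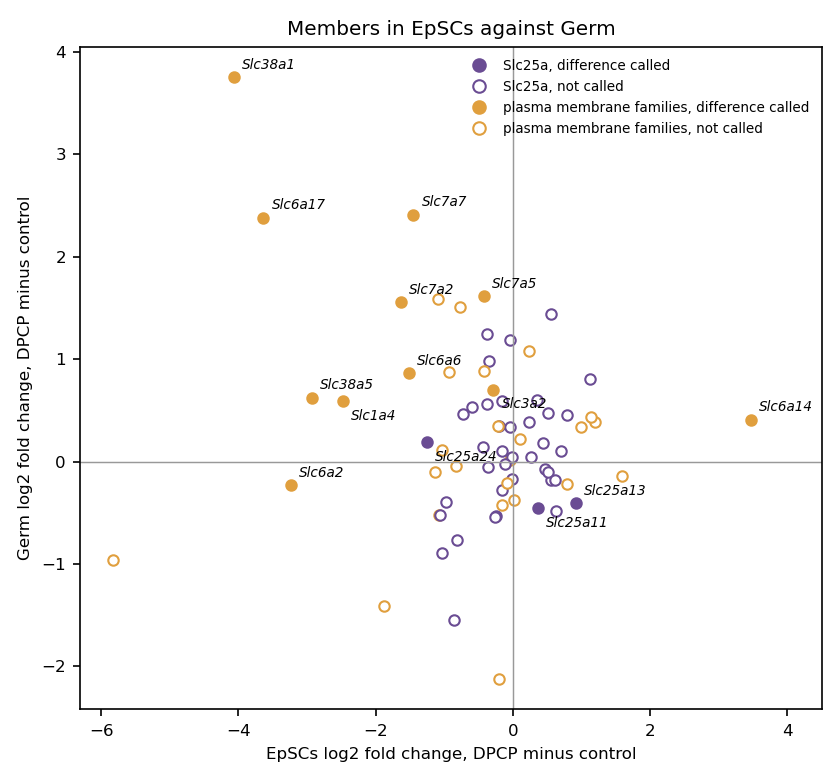
Log2 fold change, DPCP minus control, in EpSCs (horizontal) and in Germ (vertical) for the 74 members, Slc25a in purple and plasma membrane families in orange, with filled points where the difference of effects was called. The 14 filled points include Slc38a1 at −4.06 and 3.75 in the upper left and Slc6a14 at 3.47 and 0.41 on the right.

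**Figure D5:**
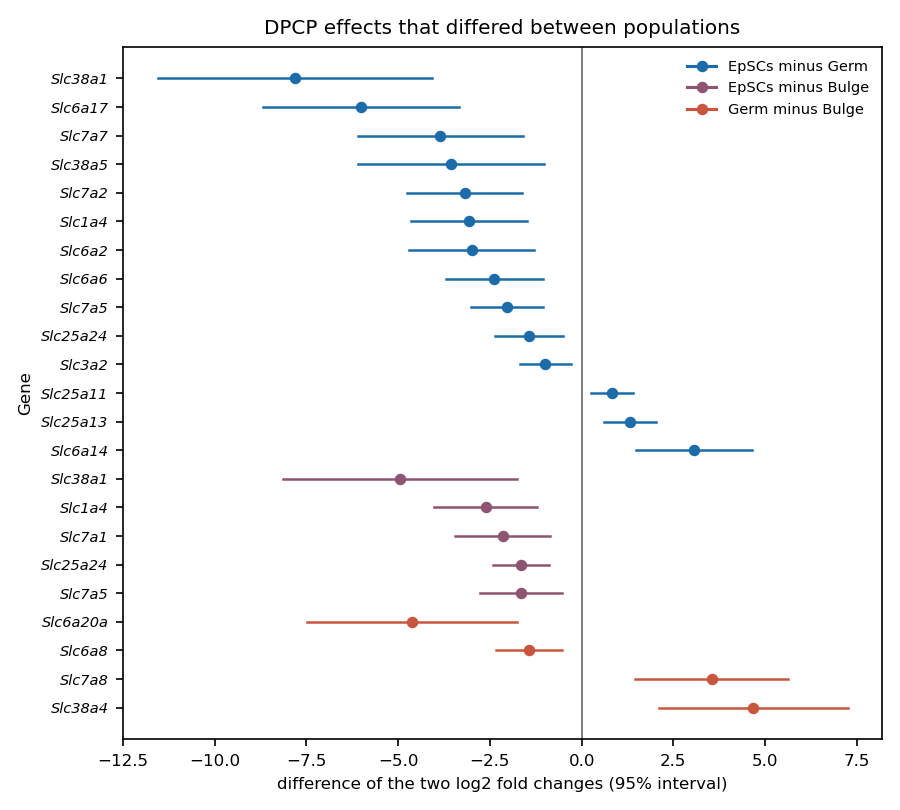
Differences of DPCP effects between populations for the members with an adjusted p under 0.05, as points with 95% intervals from the rebuilt standard error, on the log2 scale. Of the 14 EpSCs minus Germ differences 11 are below 0, all 5 EpSCs minus Bulge differences are below 0, and the 4 Germ minus Bulge differences lie on both sides.

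Markers of other cell types moved in the same Germ comparison. Melanocyte markers had 6 of 8 higher (median log2 fold change 6.09, range 1.63 to 8.50), and endothelial markers 2 of 7 (median 4.60, range 3.62 to 5.21). Fibroblast markers had 0 of 4 called (median 3.48, 3 of them with unadjusted p-values under 0.05) and leukocyte markers 0 of 6 (median 2.47, 0 of them with unadjusted p-values under 0.05) in the authors' limma table. Epidermal and upper follicle markers were below 0 in 8 of 8, with 1 called (median −0.88). Sebaceous gland markers had 1 of 8 higher in Germ (Elovl3 at 1.84 in the authors' deposited table, list median 0.78), with 5 above 0 and 3 below. Bulge markers had 0 of 10 called there and hair germ markers 0 of 5. In each of these last lists, 2 genes had an unadjusted p under 0.05 in the authors' limma table. The EpSCs comparison had 6 of 10 bulge markers higher and 2 lower, 3 of 8 epidermal and upper follicle markers higher and 4 lower, and 1 of 5 hair germ markers higher (Lgr5, which is also among the bulge markers) and 4 lower. Sebaceous gland markers had 5 of 8 higher in EpSCs (median 1.42), among them Mgst1 at 3.14 and Elovl3 at 3.11 in the authors' deposited table. The other 3, Scd1 (−0.34), Fasn (−0.33) and Awat1 (−0.21), were below 0 in EpSCs and not called. Melanocyte markers there were above 0 in 8 of 8, with 2 called (median 2.22). Fibroblast markers had 2 of 4 lower in EpSCs (median −1.26), with the other 2 above 0 and not called. Leukocyte markers had 2 of 6 lower there (median −1.32), with 5 below 0 and Cd68 at 1.67, not called. Endothelial markers there had a median of 1.25 with 0 of 7 called. In Bulge 5 of 8 sebaceous gland markers were called, 2 higher and 3 lower (median −1.67). Melanocyte markers there were below 0 in 8 of 8, with 1 called (median −1.13). Hair germ markers had 2 of 5 lower, epidermal and upper follicle markers 1 higher and 2 lower of 8, and bulge markers 1 of 10 lower. Endothelial, fibroblast and leukocyte markers had 0 called in Bulge. Of all gene IDs, 1.06% were called in Germ, 39.9% in EpSCs and 10.3% in Bulge. The part of such cells in the values of Slc38a1, Slc6a17, Slc7a2, Slc7a7, Slc38a4 and the other members was not tested.

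Genes that sense amino acids were counted from lists apart from the families. Of all gene IDs, 39.9% were called in EpSCs, 1.06% in Germ and 10.3% in Bulge. Of 25 genes of the amino acid response, which the factor ATF4 drives, 6 rose and 5 fell in EpSCs (44%, median 0.16). In Germ 0 rose and 1 fell (4%), Cbs at −1.93 in the authors' deposited table, with a list median of 0.16. In Bulge 3 rose and 3 fell (24%, median 0.32). The called genes included Psph (1.64) and Cebpb (1.45) higher and Cbs (−1.86) and Atf3 (−4.46) lower in EpSCs, and Cebpb (2.38), the asparagine synthetase gene Asns (1.51), Cbs (−1.33) and Phgdh (−1.12) in Bulge, in the authors' deposited table. Of 25 measured genes of mTORC1 amino acid sensing, 1 rose and 2 fell in EpSCs (12%), and 1 fell in Bulge (4%). They were Sesn1 (1.42), the arginine sensor gene Castor1 (−1.47) and Lamtor5 (−0.64) in EpSCs and Castor1 (−0.82) in Bulge in the authors' deposited table. In Germ 0 were called in the authors' limma table, and 5 had unadjusted p-values under 0.05. Of 5 other amino acid transporters measured, the large neutral amino acid transporter gene Slc43a2 rose 14.7-fold in EpSCs (3.88, adjusted p = 5.53e-06) and 7.82-fold in Bulge, and its relative Slc43a1 fell in both (−1.72 and −1.93), in the authors' deposited table. Slc16a10, an aromatic amino acid transporter gene, fell by 1.28 in EpSCs in that table.

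Some members share sequence or position with other genes, which bears on their counts since the read counting is not given in the sources used here. Slc6a20a (chr9:123634770-123678885, minus strand) lies 2205 bases from its paralogue Slc6a20b, and reads could be split between them, so its values are uncertain. It also overlaps Ccr9 on the other strand, which stood at 1.46 in EpSCs and 0.04 in Bulge in the authors' deposited table and was not called in either. In GENCODE M21, 26 of the 74 members overlap a gene on the opposite strand and 13 one on the same strand. The libraries were stranded, per the labels' protocols, but whether the counting used the strand is not given. Slc7a7 overlaps Oxa1l (0.07 in Germ) and Slc25a11 overlaps Rnf167 (−0.09 in EpSCs), neither called in the authors' deposited table. Slc25a26, itself not called, overlaps Lrig1, which rose by 2.15 in EpSCs (adjusted p = 2.8e-05) per the authors' deposited table. The coordinates of other genes the results turn on are chrX:21714896-21742355 (Slc6a14, plus strand), chr8:121881150-121907694 (Slc7a5, minus strand), chr15:96571418-96642913 (Slc38a1, minus strand), chr3:109123149-109168457 (Slc25a24, plus strand) and chr6:6041218-6217173 (Slc25a13, minus strand), all GRCm38.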

How the data were processed

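RNA of 18 samples was sequenced as stranded mRNA libraries, per the labels' protocols, in 6 groups of 3 named by the sample titles. The submitters' processing notes list limma 3.60.6, STAR 2.7.6a, FastQC 0.11.9 and cutadapt 3.5, with GRCm38 and mm10 as builds. How reads were counted, filtered and normalized, and which limma model was used, is not given in the sources used here. Nothing says whether samples came from separate animals, so p-values measure the spread between these samples, which may be technical.

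The authors deposited a log2 fold change for each of 13816 gene IDs and 3 comparisons. Each carries a p-value from the authors, raw and adjusted, and the adjusted one matched Benjamini-Hochberg over the whole table (largest difference 2.0e-14). The 36 library columns match no sample label and were not used, so depth is unknown, and neither the planned fits on libraries nor a comparison of the populations in control skin was made.

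Computed here (Python 3.11.15, numpy 2.4.6, scipy 1.17.1, pandas 2.3.3) were counts, medians and the test of differences between effects. For the latter, the standard error is the log2 fold change over the normal score of its p-value, and intervals are at 95%. It assumes independent libraries. On simulated data its share of false calls was above the threshold in the comparisons with EpSCs.

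All 74 member IDs matched GENCODE M21 with their version, as did 13388 of all IDs. Promoters came from RefSeq (GRCm38.p6). Only 74.3% of members had one, under the 80% needed, so a comparison of base composition over the members is void. Genes named are those called in 2 or more populations, the 6 largest called changes by direction and family, called differences and 14 carriers fixed by name. Further members are named to account for the families. Members and lists were chosen with earlier results of these data known.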

Additional observations from a re-analysis of the deposited data

Results flagged for a closer look

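The DPCP effects of the members below were called as different between populations, by the test of the difference on limma's deposited values with Benjamini-Hochberg adjustment. That test is approximate and made too many calls in the comparisons with EpSCs on simulated data. The Germ minus Bulge calls were lost with Benjamini-Yekutieli adjustment, and most of them with the t distribution, as given in the next section. Each value is the first population's log2 fold change minus the second's.

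For EpSCs minus Germ, the system L genes Slc7a5 and Slc3a2 differed by −2.04 and −0.99, and the related light chain gene Slc7a7 by −3.86. The cationic transporter gene Slc7a2 differed by −3.19. Slc38a1 and Slc38a5 differed by −7.82 and −3.56, and Slc1a4 by −3.06. In the Slc6a family the values were −6.02 for Slc6a17, −3.0 for Slc6a2, −2.38 for Slc6a6 and 3.06 for Slc6a14. The mitochondrial carrier genes had 0.82 (Slc25a11), 1.33 (Slc25a13) and −1.44 (Slc25a24).

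For EpSCs minus Bulge the values were −1.64 for Slc7a5, −2.16 for Slc7a1, −4.95 for Slc38a1, −2.62 for Slc1a4 and −1.66 for Slc25a24. For Germ minus Bulge they were 3.54 for Slc7a8, 4.68 for Slc38a4, −1.43 for Slc6a8 and −4.62 for Slc6a20a. Slc7a5, Slc38a1, Slc1a4 and Slc25a24 were each below both other populations in EpSCs.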

How the results depend on the processing

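Counts of called members depended on the adjustment. With Benjamini-Yekutieli adjustment, 16 members were called in EpSCs in place of 29 (6 Slc25a and 10 plasma membrane genes in place of 11 and 18), 0 in Germ in place of 1, and 0 in Bulge in place of 9 (0 in each family). The authors' limma table held 15 members in Germ and 22 in Bulge with unadjusted p-values under 0.05. Over all 13816 gene IDs there were 3545 in Germ and 4037 in Bulge. With the threshold at 0.10, Germ had 4 members (1 Slc25a and 3 plasma membrane genes) and Bulge 14, of which 5 were Slc25a. The shares over all gene IDs with Benjamini-Yekutieli adjustment or at 0.10 are not given here. Adjustment over protein-coding IDs changed no call of a member, and a fold change of at least 1.5 removed 3 calls over the 3 populations. For the differences of effects, Benjamini-Yekutieli left 0 of 4 (Germ minus Bulge), 1 of 5 (EpSCs minus Bulge) and 6 of 14 (EpSCs minus Germ). With the threshold at 0.10 Germ minus Bulge had 10. With the t distribution, 1 of 4, 5 of 5 and 11 of 14 were called, in the same order. For the differences too, shares of all gene IDs under these other settings are not given here.

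Centring on the median of all gene IDs, added after seeing the data, changed the sign of 3 members in Germ (median shift 0.10), 1 in Bulge and 0 in EpSCs, 0 of them called. No paired analysis was possible because the library columns carry no replicate numbers, and leaving out replicates, other pseudocounts and filters on low values were not run for the same reason. The depth of the libraries is unknown.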

Other observations

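Some members are neighbours in the genome. Slc25a29 and Slc25a47 on chromosome 12 point away from each other with 162 bases between them. Slc25a29 was at −1.03, −0.89 and −0.69 and Slc25a47 at −1.06, −0.52 and −1.0 in EpSCs, Germ and Bulge in the authors' deposited table, below 0 in each. Of these 6 values 1 was called, Slc25a29 in EpSCs.

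The system A genes Slc38a1, Slc38a2 and Slc38a4 lie in a row on chromosome 15, with gaps of 44.5 and 295 kb. In the authors' deposited table they were −4.06, −0.42 and −0.93 in EpSCs and 3.75, 0.88 and 0.88 in Germ. In Bulge they were 0.89, 0.35 and −3.81 there, with Slc38a4 called. Slc25a43 and Slc25a5 lie 18.4 kb apart on the X chromosome and stood at 0.63 and 0.55 in EpSCs, with Slc25a5 called, in the authors' deposited table. These pairs were picked by position after their values were seen.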
